A study of Mus musculus with 9 samples.

Results

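The genes described here are 10 products by which cytotoxic T cells kill and signal: the granzymes Gzma, Gzmb, Gzmk and Gzmm, the pore-forming protein Prf1, the granule proteins Srgn and Nkg7, the death ligand Fasl and the cytokines Ifng and Tnf. They were taken from a fixed list of symbols, matched through the Ensembl identifiers of the count tables to the mouse annotation, and all 10 were found among the 32976 genes counted. Bulk RNA-seq was performed on CD8+CD44+ tumor-infiltrating lymphocytes (TILs) of wildtype mice carrying subcutaneous CT26.WT tumors, a colorectal carcinoma line grown in BALB/c animals. The cells had been sorted with a tetramer that binds T cell receptors for GSW11, a CT26 tumor epitope presented by H-2Dd. There were 3 libraries in each of 3 groups: TetHighProg, high avidity cells from progressing tumors (replicates 1, 2 and 5), TetLowReg, low avidity cells from regressing tumors (replicates 6, 7 and 8), and TetLowProg, low avidity cells from progressing tumors (replicates 9, 10 and 12). Every group had received the PD-1 antibody RMP1-14 on days 3, 6 and 9 after implantation, so no untreated cells and no high avidity cells of regressing tumors entered the comparison. TetHighProg against TetLowReg therefore differs by label in both avidity and tumor outcome, which cannot be told apart, whereas TetHighProg against TetLowProg differs in avidity alone and TetLowProg against TetLowReg in outcome alone. The cells were sorted from 3 progressing and 3 regressing tumors, so TetHighProg and TetLowProg came from the same tumors. The labels do not tie a library to a mouse or tumor, so the tests below take libraries that share tumors as independent, and the spread between libraries, and every p-value, may be partly technical.

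Cytotoxic T cells kill through 2 routes. In the first, granules move to the contact with the target cell and release perforin, which opens the target membrane, and granzymes, serine proteases that enter and start cell death. The granzymes are held in the granule on the proteoglycan serglycin, encoded by Srgn, and Nkg7 is a granule membrane protein that takes part in the release. In the second route, Fas ligand on the T cell engages the death receptor Fas. Interferon gamma and tumor necrosis factor act at a distance, on antigen presentation, inflammation and survival of other cells. In the study, low avidity cells were compared with high avidity cells to ask how avidity relates to the effector state of T cells that see the same epitope.

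Values are raw read counts of the deposited tables and CPM, each count scaled by the total gene counts of its library. A gene was called found in a library at 10 or more counts. The 9 libraries held between 16405306 and 36429515 gene counts, but the number of genes found ran from 599 to 8071. TetHighProg 5, TetLowReg 7 and 8 and TetLowProg 9 and 12 each had over 2000 genes found (3181 to 8071), and are called the gene-rich libraries. The other 4, TetHighProg 1 and 2, TetLowReg 6 and TetLowProg 10, had between 599 and 1298, and this split ran across all 3 groups. A single gene took 40.2% of the counts in TetLowReg 7, against 3.56% to 13.0% in the others, which lowers every other CPM there. T cell markers were found in every library, at 2 to 10 of 10 genes, and at least 1 of Cd8a and Cd8b1 in each. B cell markers, which no CD8 sort should hold, were found in TetLowReg 7 and 8 and TetLowProg 12 (4, 5 and 5 of 5, with summed levels of 580.5, 690.9 and 1217 CPM) and were at or near 0 in the other 6 libraries. The natural killer gene Ncr1 had 0 counts in all 9.

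The stretches of 250 bases before the annotated starts are given for the 2 pairs of genes that were found in the same libraries, Gzmb with Fasl and Ifng with Tnf, and for Nkg7, the most widely found of the 10. They were read from GRCm39 at the start of the canonical transcript of GENCODE M39 and are written 5′ to 3′ on the strand of the gene. Capitals mark matches, on either strand, to short letter runs that the TATA-binding protein and the T-box, RUNX, AP-1, NFAT and STAT families are known to bind, each spelled out after the sequences.
Gzmb, chr14:56499718-56499967, minus strand: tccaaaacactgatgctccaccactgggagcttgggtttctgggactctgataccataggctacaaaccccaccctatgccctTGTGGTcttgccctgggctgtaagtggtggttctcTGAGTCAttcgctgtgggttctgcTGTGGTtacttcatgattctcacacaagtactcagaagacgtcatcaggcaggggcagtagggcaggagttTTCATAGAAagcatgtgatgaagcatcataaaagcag
Fasl, chr1:161616076-161616325, minus strand: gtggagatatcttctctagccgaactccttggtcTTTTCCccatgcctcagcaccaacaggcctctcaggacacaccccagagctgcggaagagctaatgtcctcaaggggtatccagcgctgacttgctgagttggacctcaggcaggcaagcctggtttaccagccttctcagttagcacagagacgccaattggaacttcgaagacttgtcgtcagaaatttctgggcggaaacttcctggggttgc
Ifng, chr10:118276701-118276950, plus strand: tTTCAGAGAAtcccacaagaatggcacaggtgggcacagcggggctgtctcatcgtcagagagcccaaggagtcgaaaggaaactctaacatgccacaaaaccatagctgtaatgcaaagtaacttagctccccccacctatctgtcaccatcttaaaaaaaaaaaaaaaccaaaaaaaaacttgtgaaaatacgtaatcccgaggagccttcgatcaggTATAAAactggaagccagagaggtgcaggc
Tnf, chr17:35420984-35421233, minus strand: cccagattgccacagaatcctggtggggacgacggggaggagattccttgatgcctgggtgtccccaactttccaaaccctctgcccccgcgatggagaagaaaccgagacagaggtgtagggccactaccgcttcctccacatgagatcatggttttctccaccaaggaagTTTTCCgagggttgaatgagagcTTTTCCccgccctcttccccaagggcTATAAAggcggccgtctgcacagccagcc
Nkg7, chr7:43086247-43086496, plus strand: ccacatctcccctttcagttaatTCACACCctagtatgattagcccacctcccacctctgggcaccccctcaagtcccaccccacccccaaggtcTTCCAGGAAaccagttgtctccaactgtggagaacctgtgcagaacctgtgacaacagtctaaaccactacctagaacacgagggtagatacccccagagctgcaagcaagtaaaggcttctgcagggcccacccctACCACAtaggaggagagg
Gzmb held 2 RUNX matches, at 167 and 108 bases before the start, the AP-1 match at 132 and a STAT match at 37. Fasl held a single NFAT match, at 216 bases, and so none of the letters found in Gzmb, although both genes were found in the same 4 libraries. Ifng and Tnf each had a TATA match close to the start, at 30 and 29 bases. Over all 10 genes the RUNX letters TGTGGT were in 6 stretches, against 13.0% of 21770 protein-coding promoters of the same length. The NFAT letters GGAAAA were in 5 of the 10 and in 21.9% of promoters. The STAT letters TTCNNNGAA were in 4 of the 10 and in 7.70% of promoters. The TATA letters, spelled TATAAA, were in 2 of the 10 and in 11.9% of promoters. The T-box letters GGTGTGA were in 2 of the 10 and in 3.23% of promoters, and the AP-1 letters TGANTCA were in 1 of the 10 and in 6.17% of promoters. A match is a description of the letters in this window, not a measured site.

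Across the libraries, the 10 genes were found in numbers that followed the number of genes found at all. TetHighProg 1, 2 and 5 held 2, 1 and 3 of the 10. TetLowReg 6, 7 and 8 held 0, 7 and 5, and TetLowProg 9, 10 and 12 held 8, 2 and 7. The 4 libraries with few genes thus held between 0 and 2, in every group, and the gene-rich libraries between 3 and 8. Thinning each library to 16405306 counts left these 9 numbers as they were. Of the 13373 genes found in at least 1 library, TetHighProg 5 held 23.8%, TetLowReg 7 and 8 held 59.9% and 54.1%, and TetLowProg 9 and 12 held 60.4% and 48.2%. Of the same genes, 82.4% were found in gene-rich libraries only, and so were 8 of the 10 effector genes, all but Nkg7 and Srgn.

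**Figure D1:**
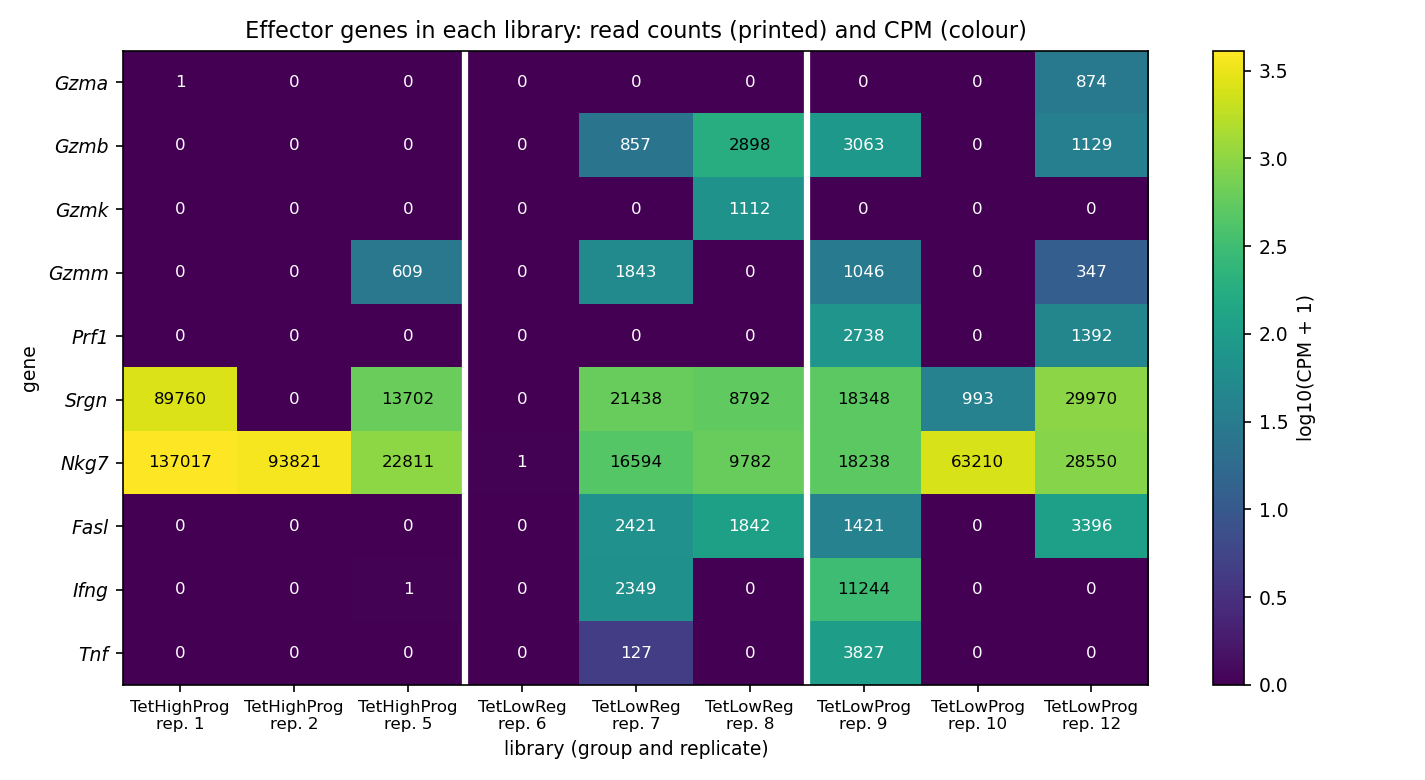
Read counts of the 10 effector genes (rows) in the 9 libraries (columns, by group and replicate), with the count printed and log10(CPM + 1) as colour. Nkg7 and Srgn are bright in most columns, whereas the other 8 genes are at 0 or 1 count in TetHighProg 1 and 2, TetLowReg 6 and TetLowProg 10.

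**Figure D2:**
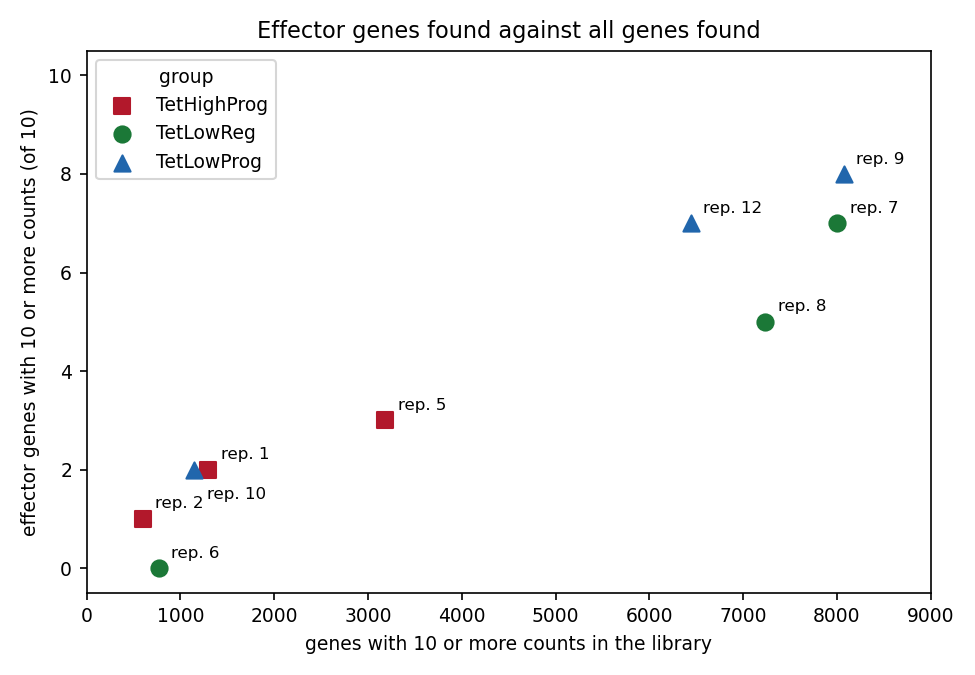
Number of effector genes with 10 or more counts (y axis, of 10) against the number of all genes with 10 or more counts (x axis), 1 point per library, with symbols for the 3 groups. Libraries under 2000 genes hold 0 to 2 effector genes in each group, and the 2 TetLowProg libraries with most genes hold 8 and 7.

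Nkg7 and Srgn carried most of the effector reads. Nkg7 (ENSMUSG00000004612, chr7:43086497-43087678, 4 exons) had 137017, 93821 and 22811 counts in TetHighProg 1, 2 and 5, or 4101, 3705 and 1005 CPM. In TetLowReg 6, 7 and 8 it had 1, 16594 and 9782 counts, or 0.0454, 455.5 and 596 CPM. In TetLowProg 9, 10 and 12 it had 18238, 63210 and 28550 counts, or 502, 2514 and 906 CPM. Every TetLowReg library therefore lay below every TetHighProg library, and TetLowProg lay across both. The group means were 2937 ± 1685 CPM in TetHighProg, 1307 ± 1064 in TetLowProg and 351 ± 312 in TetLowReg (SD, n = 3 libraries each), and neighbours in this order differed by less than the larger of their SDs. The highest 3 values all came from libraries with few genes. Among the gene-rich libraries alone, TetHighProg 5 was highest at 1005 CPM and the other 4 lay between 455.5 and 906 CPM.

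On log2(CPM + 1), the mean of Nkg7 was 6.04 in TetLowReg and 11.28 in TetHighProg, with an exact two-sided permutation p of 0.10, the smallest that 3 libraries against 3 allow. Nkg7 was the single one of the 10 genes whose libraries did not overlap in this comparison, where 3.10% of the 13373 genes found anywhere did not overlap either. In TetLowProg against TetHighProg (3.45% of genes not overlapping) and TetLowProg against TetLowReg (1.94%) every effector gene overlapped, and Nkg7 had exact p-values of 0.20 in both. The summed counts put Nkg7 in TetLowReg at 0.113 of the TetHighProg level and in TetLowProg at 0.380 of it. TetLowProg 10 alone held 63210 of the 109998 TetLowProg counts. TetLowReg 6 held 1 of the 26377 TetLowReg counts. It also had 8 counts of Cd8b1, where the other libraries had 1250 to 79539, but 47022 counts of Cd8a. TetLowReg 6 held 6 of 10 T cell markers and 3 of 9 genes that every cell uses. The cause of the near absence of Nkg7 there was not tested.

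Srgn (ENSMUSG00000020077, chr10:62329029-62363238, 3 exons) was found in 7 libraries. It had 89760, 0 and 13702 counts in TetHighProg 1, 2 and 5, 0, 21438 and 8792 in TetLowReg 6, 7 and 8, and 18348, 993 and 29970 in TetLowProg 9, 10 and 12. The 5 gene-rich libraries lay close together, between 505 and 951 CPM, and the 4 others ran from 0 to 2687 CPM. Group means were 1097 ± 1410 CPM in TetHighProg, 499 ± 456 in TetLowProg and 375 ± 326 in TetLowReg (SD, n = 3), and no 2 groups differed beyond this spread. Together, Nkg7 and Srgn made up 98.4% of the counts of the 10 genes in TetHighProg 5, 83.4% and 76.0% in TetLowReg 7 and 8, and 61.1% and 89.1% in TetLowProg 9 and 12. In the 4 libraries with few genes they made up practically all of them. Per kilobase of exon, Nkg7 was above Srgn in each of the 8 libraries that held it, for example 1094 against 211 CPM per kilobase in TetHighProg 5.

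Granzyme B was the granzyme with most counts. Gzmb (ENSMUSG00000015437, chr14:56496295-56499717, 5 exons), which cleaves caspases and Bid in the target cell, had 0 counts in TetHighProg 1, 2 and 5. In TetLowReg 6, 7 and 8 it had 0, 857 and 2898 counts (0, 23.5 and 177 CPM), and in TetLowProg 9, 10 and 12 it had 3063, 0 and 1129 (84.3, 0 and 35.8 CPM). It was thus found in all 4 gene-rich low avidity libraries and in neither of the low avidity libraries with few genes. In TetHighProg 5, the 1 gene-rich high avidity library, 0 of 22688777 counts allows a level of up to 0.132 CPM. The study stained granzyme B protein by flow cytometry and saw it in high as well as low avidity cells. The 0 counts therefore do not show that high avidity cells lack granzyme B. Group means were 66.7 ± 95.9 CPM in TetLowReg and 40.0 ± 42.3 CPM in TetLowProg (SD, n = 3), and these groups could not be separated (exact permutation p = 1.0). Against a floor of 3 counts over the TetHighProg group, summed Gzmb was at least 1361-fold higher in TetLowReg and at least 1224-fold higher in TetLowProg, with exact permutation p = 0.40 for each, 1 library of each low avidity group being at 0 as well. Most of the summed counts came from 1 library of each group, TetLowReg 8 (2898 of 3755) and TetLowProg 9 (3063 of 4192), so both bounds depend on it. Intervals and floors cover counting error only, since the reads were amplified by 22 cycles of PCR without molecular identifiers.

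The other granzymes were scattered over single libraries. Gzma (ENSMUSG00000023132, chr13:113230355-113237524, 5 exons), a tryptase, had 874 counts in TetLowProg 12 (27.7 CPM), 1 count in TetHighProg 1 and 0 in the other 7 libraries. Gzmk (ENSMUSG00000042385, chr13:113308142-113362442, 5 exons in the canonical transcript), a granzyme typical of memory and early dysfunctional CD8 cells, had 1112 counts in TetLowReg 8 (67.8 CPM) and 0 elsewhere. Gzma and Gzmk lie side by side on chromosome 13 but were found in different libraries. Of the 4872 genes found in a single library, 395 had the library of Gzma and 1322 that of Gzmk.

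Gzmm was the granzyme with a value in high avidity cells. Gzmm (ENSMUSG00000054206, chr10:79524854-79531095, 5 exons) had 609 counts in TetHighProg 5 (26.8 CPM) and 0 in TetHighProg 1 and 2. In TetLowReg it had 1843 counts in replicate 7 (50.6 CPM) and 0 in replicates 6 and 8, and in TetLowProg it had 1046, 0 and 347 counts in replicates 9, 10 and 12 (28.8, 0 and 11.02 CPM). The value of TetHighProg 5 lay inside the range of the low avidity libraries. An antisense gene model, Gm68542, overlaps the exons of Gzmm and shares 26.6% of its stretches of 35 bases. The counts used here ignore strand, and it is not known whether this model was in the annotation used for counting. Reads of the 2 may therefore have been mixed, or left out as ambiguous. Models on the other strand also overlap exons of Gzmk (Gm59720) and Srgn (Gm56955).

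Perforin was found in TetLowProg libraries only. Prf1 (ENSMUSG00000037202, chr10:61133546-61140461, 3 exons) had 2738 counts in TetLowProg 9 and 1392 in TetLowProg 12 (75.3 and 44.2 CPM) and 0 in the other 7 libraries, including both gene-rich TetLowReg libraries. Over the summed counts this was at least 1109-fold higher in TetLowProg than in TetLowReg and at least 1206-fold higher than in TetHighProg, with exact permutation p = 0.40 in each. Among the 2630 genes found in exactly 2 libraries, 447 (17.0%) had these same 2, so the pattern was shared with many other genes. TetLowReg 7 and 8 held 857 and 2898 counts of Gzmb with 0 of Prf1, and TetLowProg 9 and 12 held both.

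Fas ligand had the same libraries as Gzmb. Fasl (ENSMUSG00000000817, chr1:161608258-161616075, 4 exons) had 0 counts in TetHighProg 1, 2 and 5, 0, 2421 and 1842 in TetLowReg 6, 7 and 8 (0, 66.5 and 112 CPM), and 1421, 0 and 3396 in TetLowProg 9, 10 and 12 (39.1, 0 and 108 CPM). Where found, its level lay within 39.1 to 112 CPM. The summed counts were at least 1545-fold higher in TetLowReg and at least 1406-fold higher in TetLowProg than in TetHighProg, again with exact permutation p = 0.40 in each. Of the 1586 genes found in exactly 4 libraries, 975 (61.5%) were found in these 4. The sharing of libraries by Gzmb and Fasl is therefore the commonest pattern of its kind and not particular to them. With both low avidity groups together, 6 libraries against 3, Gzmb and Fasl each had an exact permutation p of 0.167, where the smallest possible is 0.0119.

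The cytokines came from 1 library of each low avidity group. Ifng (ENSMUSG00000055170, chr10:118276951-118281797, 4 exons) had 2349 counts in TetLowReg 7 (64.5 CPM) and 11244 in TetLowProg 9 (309 CPM). It had 1 count in TetHighProg 5 and 0 in the other 6 libraries, among them the gene-rich TetLowReg 8 and TetLowProg 12. Tnf (ENSMUSG00000024401, chr17:35418357-35420983, 4 exons) had 127 counts in TetLowReg 7 (3.49 CPM) and 3827 in TetLowProg 9 (105 CPM) and 0 in the other 7. Both cytokines were thus higher in TetLowProg 9 than in TetLowReg 7, which are 1 library each, and 517 of the 2630 genes found in exactly 2 libraries had the same 2. Between TetLowProg and TetLowReg the exact permutation p was 1.0 for each cytokine, and against TetHighProg it was also 1.0 in both groups. Summed Ifng was 2554-fold higher in TetLowReg than in TetHighProg, with a counting interval of 458 to 100935 because it rests on 1 TetHighProg count, and 9846-fold higher in TetLowProg (1767 to 388934). A lncRNA model on the same strand, Gm49751, overlaps Ifng exons and shares 22.0% of its stretches of 35 bases.

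**Figure D3:**
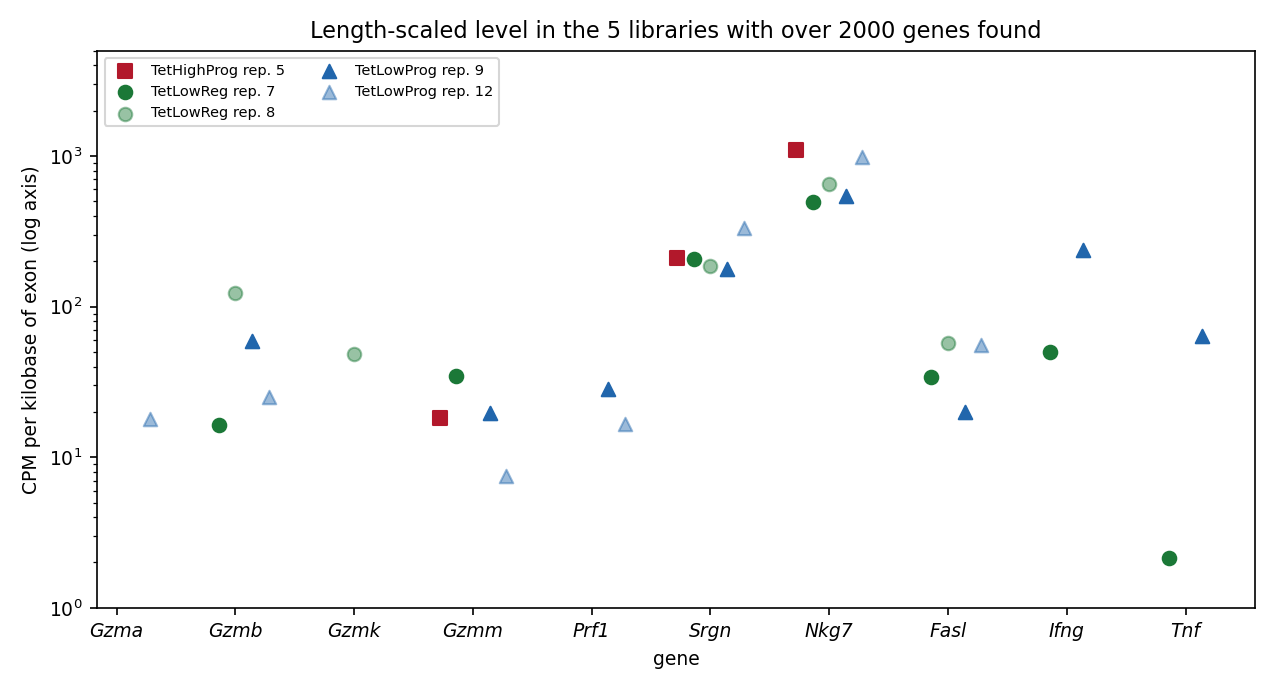
CPM per kilobase of exon (log axis) of the 10 effector genes in the 5 gene-rich libraries, 1 symbol per library. Genes under 10 counts in a library have no symbol: the high avidity library TetHighProg 5 has 3 (Gzmm, Srgn and Nkg7), and Ifng in TetLowProg 9, at 239, is the highest value outside Nkg7 and Srgn.

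Scaled by the length of all annotated exons of a gene, levels can be ordered within a library, and the order depends on that length. In TetLowReg 7 the order from high to low was Nkg7 (496 CPM per kilobase), Srgn (206), Ifng (49.8), Gzmm (34.4), Fasl (34.1), Gzmb (16.4) and Tnf (2.13). In TetLowReg 8 it was Nkg7 (649), Srgn (187), Gzmb (123), Fasl (57.6) and Gzmk (48.8). Below Nkg7 and Srgn, Gzmb was thus the highest gene in TetLowReg 8 and the next to last in TetLowReg 7. In TetLowProg 9 Ifng (239) came second, above Srgn (177), and was followed by Tnf (64.3), Gzmb (58.7), Prf1 (28.4), Fasl (20.1) and Gzmm (19.6). In CPM, without scaling by length, Srgn was above Ifng there (505 against 309). In TetLowProg 12 Fasl (55.3) led the less abundant genes, before Gzmb (25.0), Gzma (18.0), Prf1 (16.7) and Gzmm (7.48). No 2 of the gene-rich libraries had the same set of effector genes, and on this scale Nkg7 was the highest of the 10 in all 5. In bulk samples fewer cells that express a gene and less RNA of it per cell cannot be told apart.

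In the test across all genes, no effector gene was called. edgeR's quasi-likelihood test was fitted to 5813 genes left by its low-count filter, and a call needed an adjusted p under 0.05 (Benjamini-Hochberg over these genes) and a log2 fold change beyond 2 in either direction. Of the 10, only Gzmb, Gzmm, Fasl, Nkg7 and Srgn passed the filter. The share of all genes called was 0.00% in TetLowReg vs TetHighProg, 0.00% in TetLowProg vs TetHighProg, 0.00% in TetLowProg vs TetLowReg and 0.0172% (1 gene, Fem1b, lower) in both low avidity groups against TetHighProg. At an unadjusted p under 0.05 there were 1135, 1475, 54 and 1488 genes in these comparisons. The counts against TetHighProg moved when 1 library was left out, and each such fit also tested another set of genes. Without any 1 of the 3 TetHighProg libraries, TetLowReg 7 or 8 or TetLowProg 9 or 12 they were 128 to 327, 148 to 323 and 174 to 395 for TetLowReg, TetLowProg and both together, with no effector gene among them. Without TetLowReg 6 they were 2421, 2693 and 2107, and without TetLowProg 10 they were 2075, 2676 and 2168. Shares of all genes at this level, given below, come from the fit to all 9 libraries and have the same limit. The median log2 fold change of all genes tested was 3.52 in TetLowReg vs TetHighProg and 4.27 in TetLowProg vs TetHighProg, so a typical gene that passed the filter was fitted as higher in the low avidity groups. These medians were 1.31 and 0.18 with no filter and 0.77 and 0.91 under a stricter one. Without TetHighProg 5 they were 5.80 and 6.85. The first was 1.52 without TetLowReg 7 and 2.23 without TetLowReg 8, and the second 1.73 without TetLowProg 9. Without the 4 libraries with few genes they were 3.86 and 3.17, with TetHighProg 5, the gene-rich library with fewest genes, as the single high avidity library.

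Against TetHighProg, Gzmb was fitted 10.17 higher in TetLowReg on the log2 scale (SE 4.95, adjusted p = 0.233) and 8.68 higher in TetLowProg (SE 4.48, adjusted p = 0.193), by edgeR. For Fasl the values were 10.17 (SE 4.96, adjusted p = 0.233) and 9.23 (SE 4.67, adjusted p = 0.193). Both genes were at 0 in every TetHighProg library, so the size of these fitted values depends on the prior count of 2 and is no bound. Their unadjusted p-values were 0.0399 and 0.0403 in TetLowReg, a level that 19.0% of all genes tested passed in the same direction. In TetLowProg they were 0.0526 and 0.0478, where 24.8% of genes were under 0.05 in that direction, and in both groups together 0.0438 and 0.0420, where 24.4% were. Nkg7 went the other way from most genes, at −2.94 in TetLowReg (SE 2.48, adjusted p = 0.462) and −1.65 in TetLowProg (SE 2.37, adjusted p = 0.747). Srgn was fitted at −0.99 and −1.36 (adjusted p = 0.911 and 0.864) and Gzmm at 1.96 and 0.36 (adjusted p = 0.870 and 0.978), all with SE of 2.83 or more. Both TetLow comparisons share the TetHighProg libraries and are not independent. With single libraries left out, the TetLowReg values ran from 8.23 to 10.8 for Gzmb, 9.72 to 10.79 for Fasl and −3.505 to −2.41 for Nkg7. The TetLowProg values ran from 7.84 to 9.18, 7.77 to 9.82 and −2.81 to −0.91 in the same order.

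Between the low avidity groups, TetLowProg vs TetLowReg, the fitted differences were small beside their errors. They were −1.49 for Gzmb (95% interval −10.13 to 7.14), −0.94 for Fasl (−9.48 to 7.60), −1.60 for Gzmm (−9.95 to 6.74), 1.29 for Nkg7 (−3.31 to 5.88) and −0.37 for Srgn (−5.88 to 5.14), each with an edgeR adjusted p of 1.0. Intervals of this width leave differences of many fold in either direction undetectable at this number of libraries.

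**Figure D4:**
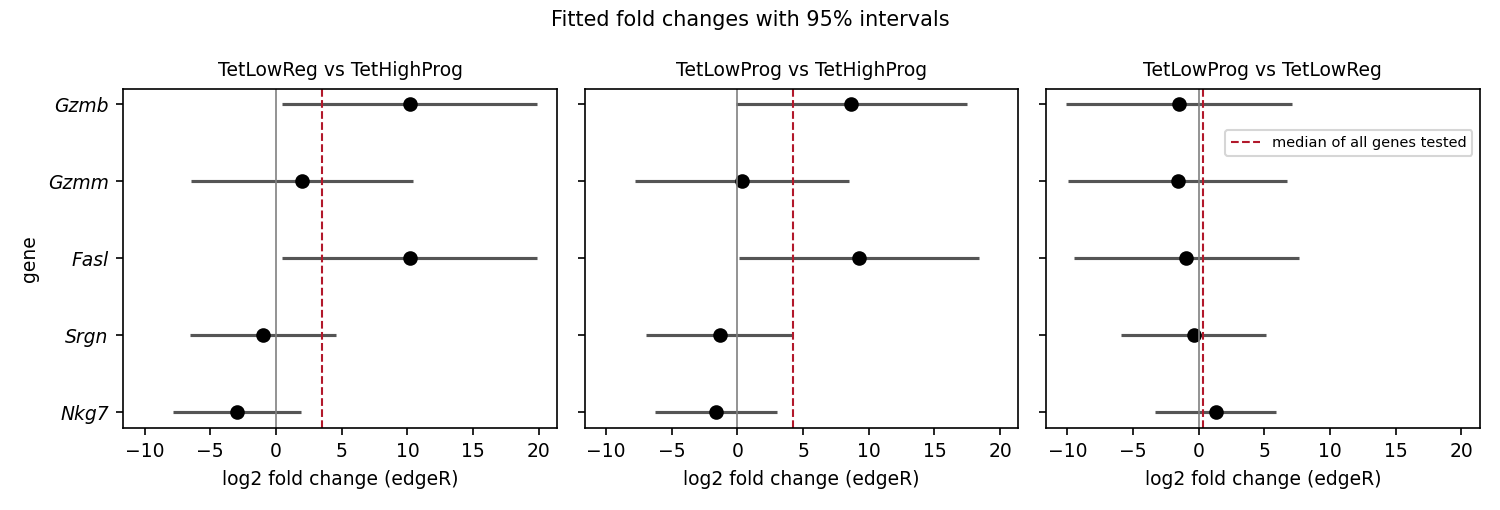
edgeR log2 fold changes (points) with 95% intervals (lines) of the 5 effector genes tested, in 3 comparisons, with the median of all 5813 genes tested as a dashed line. Gzmb and Fasl lie to the right of the dashed line in both comparisons with TetHighProg and Nkg7 and Srgn to the left, and all intervals in TetLowProg vs TetLowReg span 0.

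The call depended on the tool. DESeq2, the tool of the study, here fitted to the 2 groups compared, called Gzmb (log2 fold change 12.50, adjusted p = 0.0159) and Fasl (12.55, adjusted p = 0.0158) higher in TetLowReg vs TetHighProg, 2 of the 4 effector genes it gave an adjusted p. The same fit called 33.6% of all genes it tested higher. In TetLowProg vs TetHighProg it called Gzmb (12.53, adjusted p = 0.00652), Fasl (12.61, adjusted p = 0.00629) and Prf1 (12.49, adjusted p = 0.00661), 3 of 6, where 45.7% of all genes were called higher. In TetLowProg vs TetLowReg it called none of 6, beside 0.0254% of all genes, and Prf1 had an adjusted p of 0.178. Fitted to all 9 libraries with default size factors, DESeq2 called 2 of 5 effector genes against TetHighProg in TetLowReg, in TetLowProg and in both together, where it called 37.5%, 46.2% and 48.6% of all genes. With size factors from positive counts (poscounts) it called 3, 1 and 3 of 4, beside 28.3%, 28.9% and 37.1% of all genes. limma-voom with sample quality weights called 2, 2 and 3 of 5, beside 41.5%, 49.9% and 68.2%. When the 4 libraries with few genes were left out and all 10 genes could be tested by edgeR, none was called, beside 0.0232% of all genes in each comparison with TetHighProg, 0.0541% with both low avidity groups together and 0.00% in TetLowProg vs TetLowReg. Gzmb and Fasl then had log2 fold changes of 10.83 and 10.84 in TetLowReg vs TetHighProg (adjusted p = 0.485 and 0.460), with TetHighProg 5 as the single high avidity library, assumed to vary like the others. Nkg7 moved from −2.94 to −0.23 in that fit, which left out all 4 libraries at once and tested another set of genes. Leaving out TetHighProg 1, TetHighProg 2 or TetLowReg 6 singly gave −2.965, −2.409 and −2.448.

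Genes of the granule pathway were followed in fixed lists. Among 9 genes of granule enzymes and their processing, TetHighProg 1, 2 and 5 held 1, 2 and 3, TetLowReg 6, 7 and 8 held 1, 9 and 6, and TetLowProg 9, 10 and 12 held 9, 4 and 7. All 9 were tested by edgeR, 0 were called, and 3 in TetLowReg and 4 in TetLowProg had an unadjusted p under 0.05 and were higher than in TetHighProg, a level that 19.0% and 24.8% of all genes tested passed in that direction. Their median log2 fold changes were 6.69 and 8.99, against 3.52 and 4.27 over all genes, or 7.38 and 9.72 against 3.62 and 4.56 with genes at 0 in a group set at their bound. In the same fits the medians were 10.67 and 9.60 for B cell markers (4 tested) and 1.02 and 1.69 for T cell markers (10 tested). Cathepsin W (Ctsw), a protease of cytotoxic lymphocyte granules, had 0 counts in the 3 TetHighProg libraries and in TetLowReg 6, but 52422 in TetLowProg 10, a library without Gzmb, Prf1 or Fasl. It had 37471 in TetLowProg 9 and between 419 and 4223 in the other 3. The mannose 6-phosphate receptor M6pr, which sorts granzymes to granules, had 8582 counts in TetHighProg 5 and between 1710 and 11365 in the gene-rich low avidity libraries, whereas the larger receptor Igf2r was found in all 9 (127 to 12434 counts). Calr and Cst3 were found in the same 5 low avidity libraries and in no TetHighProg library.

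Of 9 matched genes of granule release, TetHighProg held 1, 0 and 4, TetLowReg 1, 6 and 5, and TetLowProg 8, 1 and 9. Of these, 7 were tested and 0 called, with 0 and 2 at an unadjusted p under 0.05 and higher in TetLowReg and TetLowProg than in TetHighProg, beside the same 19.0% and 24.8% of all genes. Rab27a, the GTPase that docks granules at the membrane, was found in 8 libraries (0 in TetHighProg 2, otherwise 286 to 37098 counts). Vamp8, a granule SNARE, and Lyst, mutated in a granule disorder, were each found in all gene-rich libraries. Of the other 6 granzymes, all from the cluster on chromosome 14, Gzmc had 2368 counts in TetLowReg 7 and Gzmf 1067 in TetLowProg 9. Gzmd, Gzme and Gzmg had 0 in every library and Gzmn no more than 12. These genes share between 9.44% and 39.0% of their stretches of 35 bases with other genes, mostly one another, and reads that fit more than 1 of them are not counted, so their values are uncertain. Of 4 serpins that inhibit granzymes, 3 were found, in gene-rich libraries only, as were 82.4% of all genes found anywhere, and Serpinb1a had 0 counts throughout. Of these, 2 were tested and 0 called, with 0 in TetLowReg and 2 in TetLowProg at an unadjusted p under 0.05 and higher than in TetHighProg, beside 19.0% and 24.8% of all genes. Serpinb9, the granzyme B inhibitor, had 10761 counts in TetLowReg 8, where Gzmb was highest in CPM, and 15 or fewer elsewhere.

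Among 9 genes of the death routes, namely the ligand Tnfsf10 (TRAIL), death receptors and the proteins that act after them, the numbers found were 1, 0 and 5 in TetHighProg, 0, 5 and 5 in TetLowReg and 6, 1 and 6 in TetLowProg. Here TetHighProg 5 held as many as the gene-rich TetLowReg libraries, with Fas itself, Fasl and Tnf at 0. It had 477 counts of Casp8, the initiator caspase of the Fas route, fewer than the 644 to 15324 of the gene-rich low avidity libraries and the 11326 of TetHighProg 1, and 5977 of the TNF receptor Tnfrsf1b. The median fold change of the 6 tested was 0.76 in TetLowReg and 2.34 in TetLowProg on the log2 scale, under the 3.52 and 4.27 of all genes, and 0 were called. In each comparison 3 of the 6 were positive. At an unadjusted edgeR p under 0.05, 1 and 2 were higher, beside 19.0% and 24.8% of all genes, and 0 were lower. Of 10 other cytokines and chemokines, none was found in any TetHighProg library or in TetLowReg 6 or TetLowProg 10, and 4, 2, 5 and 2 were found in TetLowReg 7 and 8 and TetLowProg 9 and 12. Ccl4 was the highest shared one (2696, 52, 13474 and 389 counts), Ccl5 had 173, 896, 5467 and 255, and Ltb had 19438 in TetLowProg 9 alone. Of these 10, 2 were tested and 0 called, with 0 in TetLowReg and 1 in TetLowProg higher at that level, beside the same shares of all genes.

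Interferon gamma receptor genes and targets were spread more widely than Ifng itself, at 5, 2 and 5 of 10 in TetHighProg, 2, 8 and 6 in TetLowReg and 7, 4 and 6 in TetLowProg. Ifngr1 was found in 8 libraries and Jak1 in 7. The target Irf1 had 56.0, 0 and 212.8 CPM in TetHighProg 1, 2 and 5, 235.1, 8.89 and 1.04 in TetLowReg 6, 7 and 8, and 1006, 0 and 48.3 in TetLowProg 9, 10 and 12. It was highest in TetLowProg 9, the library with most Ifng, but next in TetLowReg 6, which had 0 counts of Ifng. The median log2 fold changes of the 7 tested were −0.12 in TetLowReg and 1.56 in TetLowProg against TetHighProg, under the 3.52 and 4.27 of all genes. By edgeR 0 were called, and 1 in each comparison was higher at an unadjusted p under 0.05, beside 19.0% and 24.8% of all genes. At that level 0 were lower. Transcription factors of the effector program were found at 0, 0 and 4 of 10 in TetHighProg, 1, 4 and 5 in TetLowReg and 8, 0 and 3 in TetLowProg, with 4 tested and 0 called. Their medians against TetHighProg were 3.01 in TetLowReg and 4.38 in TetLowProg, and 0 were at an unadjusted edgeR p under 0.05. Runx3, required for the CD8 cytotoxic program, was found in the 5 gene-rich libraries and was highest in TetHighProg 5 (572 CPM, against 76.2 to 227). Tbx21, which encodes T-bet and was singled out after its values were seen, had 4499 counts in TetLowProg 9 and 0 in the other 8 libraries.

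**Figure D5:**
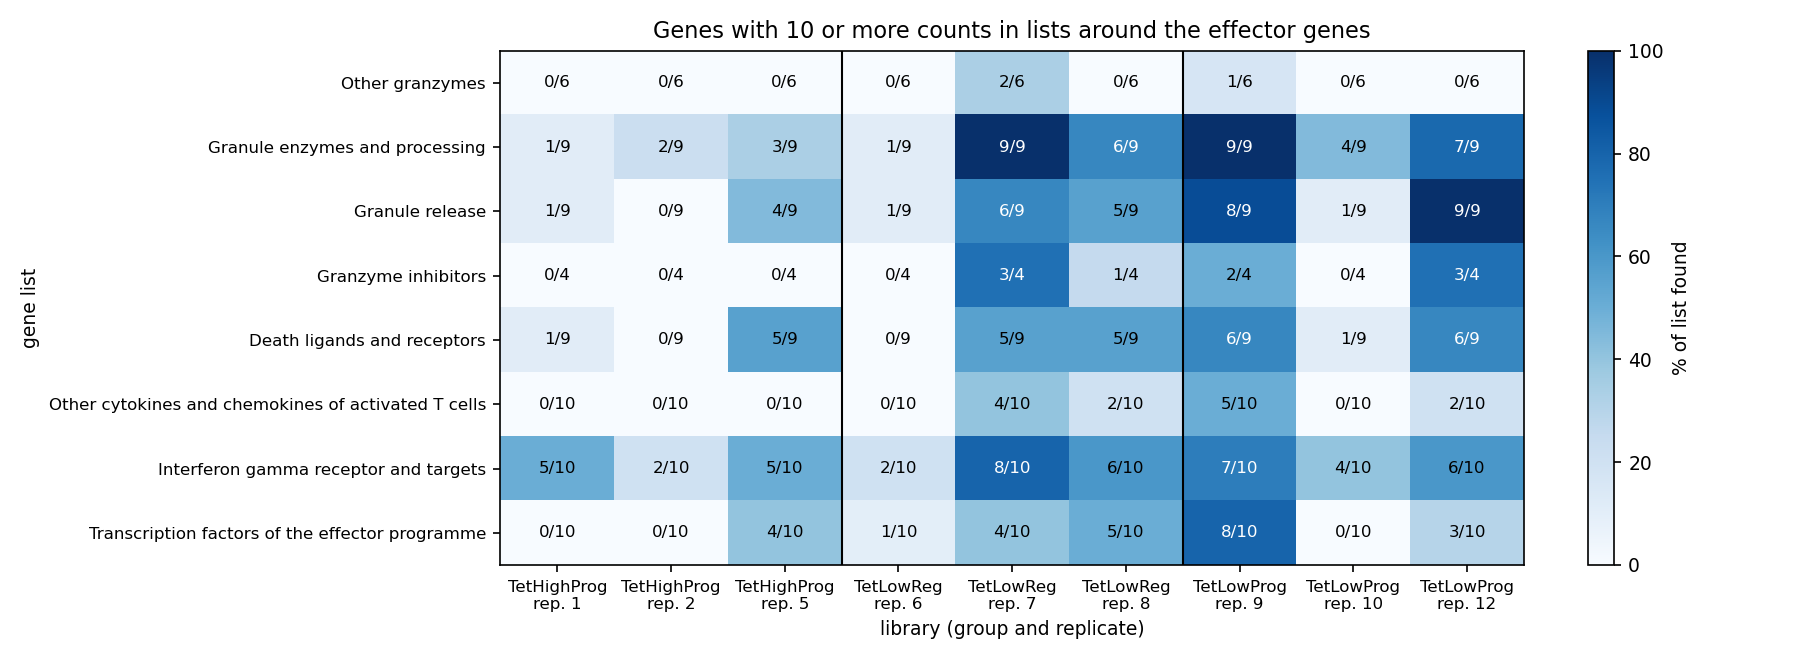
Number of genes with 10 or more counts in each of 8 fixed lists around the effector genes (rows) per library (columns), printed as found of matched and coloured by percent found. The interferon gamma list is found in every library, at 2 to 8 of 10, whereas the other cytokines are at 0 in all 3 TetHighProg libraries, TetLowReg 6 and TetLowProg 10.

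Signs of other cells moved with the effector genes in part. The B cell markers were high in 3 of the 4 libraries that held Gzmb and Fasl and at 0 CPM in the remaining one, TetLowProg 9, which had the most effector genes (8 of 10) and the most counts of Gzmb. Macrophage and dendritic cell markers, led by Lyz2, summed to 8399 CPM in TetLowReg 7, 1217 in TetLowReg 8, 621 in TetLowProg 12, 1543 in TetHighProg 1 and 165 in TetHighProg 5, but to 16.1 CPM in TetLowProg 9 and at most 0.227 in the other 3. The CD4 and regulatory T cell markers summed to 63.7, 38.8 and 60.03 CPM in TetLowReg 7, TetLowReg 8 and TetLowProg 12, to 2.25 in TetHighProg 5 and to 0 in the other 5. They were led by Cd4 in TetLowReg 7 (2020 counts), Foxp3 in TetLowReg 8 (585) and, in about equal amounts, Ikzf2 (944) and Il2ra (945) in TetLowProg 12, of which Il2ra was singled out after its values were seen, and CD4 T cells can make Fas ligand and both cytokines. Hemoglobin transcripts were found in the same 3 libraries only, at summed erythroid levels of 24.5, 29.6 and 53.9 CPM. Cd8a and Cd8b1 together were at 101, 469 and 642 CPM in these 3, against 1745 to 3086 CPM in the other 6. Tumor and stroma markers were at most 8.48 CPM in the 4 libraries with Gzmb and reached 372 CPM in TetHighProg 1. Of the 8 natural killer markers, Ncr1, Klrb1c and Klra8 were at 0 throughout, but BALB/c mice lack Klra8 and carry a divergent Klrb1c, so of these Ncr1 alone bears on natural killer cells here, and 3, 3, 3 and 4 were found in TetLowReg 7 and 8 and TetLowProg 9 and 12 against 2 in TetHighProg 5. The list summed to 145, 38.3, 326 and 165 CPM in these 4, to 216 in TetHighProg 5 and to at most 0.908 in the other 4. It was thus highest in TetLowProg 9, through the receptors Klrk1 and Klrd1 (5568 and 5827 counts), which activated CD8 cells carry too, and natural killer cells can make all of the products named next. The counts of Gzmb, Fasl, Prf1, Ifng and Tnf in TetLowProg 9 stood in a library with 0 counts of the B cell, CD4 and erythroid markers and few of those of macrophages, but with the highest natural killer sum. All libraries came from cells sorted as CD8+CD44+ and tetramer-binding, and the part of other cells in the effector counts of these 4 libraries was not tested. Neutrophil markers stayed at 32 counts or fewer and mast cell markers at 26 or fewer. Genes that every cell uses were also missing in part: of 9, the libraries held 4, 4, 6, 3, 8, 8, 9, 4 and 9 in the order of groups above, and Gapdh had 0 or 1 count in TetHighProg 2 and 5, TetLowReg 6 and TetLowProg 10. TetHighProg 5, with 0 counts of Gzmb, Prf1 and Fasl, had 1 count of Gapdh but held 6 of these 9 genes. Among them were Actb (235409 counts), B2m (31400) and Tbp (1040). The cause of the 0 values was not tested.

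The genes nearest in level to 3 of the effector genes were sought among those that passed the filter, by the mean absolute difference of log2(CPM + 1) over the 9 libraries. For Gzmb they were Ifitm2 (0.13), Mapk9 (0.17) and Pmvk (0.17), where the median over all genes was 1.71. For Ifng they were Akt1 (0.24), Cbr1 (0.29) and Cst7 (0.31), with a median of 2.06, and Cst7 encodes cystatin F, an inhibitor of granule cathepsins. For Prf1 they were Slamf1 (0.11), Mrpl20 (0.15) and Sema4d (0.19), with a median of 1.76. These are likenesses over 9 points that share the split between gene-rich libraries and the rest.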

How the data were processed

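Libraries were prepared by the authors with Smart-seq2 (22 cycles of amplification, Nextera XT, no molecular identifiers) and aligned with STAR 2.7.6a to GRCm39 per the submitters' processing notes. The notes and methods also name featureCounts, whereas the deposited tables have the layout of STAR's gene counts. The deposited values are raw counts per gene, of which the unstranded column was used (50.2% to 50.8% of stranded counts fell on the first strand). The annotation release is not given in the sources used here. Symbols and coordinates came from GENCODE M39 (28645 of 32976 genes matched), and Vamp7 and Hprt, unmatched, were not analysed here. Counts were 40.1% to 59.7% of all reads, the rest being unmapped, multimapping, outside genes or ambiguous.

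CPM were computed from gene counts. All 9 libraries entered 1 model with 3 groups in edgeR 4.0.16 (R 4.3.3; TMM, filterByExpr, quasi-likelihood, prior count 2), where a call needed adjusted p under 0.05 together with a log2 fold change beyond 2 in either direction. SE was the log2 fold change divided by the root of F. Single genes were compared by exact two-sided permutation of mean log2(CPM + 1), in 38 tests without adjustment. Zero groups were given a floor of 3 counts over the group. DESeq2 1.42.0 and limma 3.58.1 were alternatives. The fits were also run on simulated data, but DESeq2 was not run there at the spread of these data. The simulation therefore does not check its calls. The 10 genes are all named. From the lists, genes found in 5 or more libraries, or the 3 highest, may be named, and exceptions are marked or given as values of 0. The members, lists and tests were chosen with earlier results of these data known.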

Additional observations from a re-analysis of the deposited data

How the results depend on the processing

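No paired analysis was possible because the groups share no replicate numbers and the labels tie no library to a tumor, although TetHighProg and TetLowProg share tumors. edgeR called no effector gene that it tested, which were all 10 with no filter or without the libraries of few genes, 5 to 8 without single libraries, 5 with library size or without mitochondrial genes, 2 to 5 on the 2 groups compared, and only Nkg7 and Srgn under the strict filter. DESeq2 with default size factors, DESeq2 with poscounts size factors and limma-voom tested 5, 4 and 5. They called 2, 3 and 2 of these in TetLowReg vs TetHighProg, 2, 1 and 2 in TetLowProg vs TetHighProg, and 2, 3 and 3 with both low avidity groups together, and DESeq2 on the 2 groups compared called 2 and 3 in the first 2 comparisons. These were Gzmb and Fasl throughout (only Fasl where 1 was called), with Prf1 in the last fit, Nkg7 with poscounts (TetLowReg vs TetHighProg −7.33, adjusted p = 0.00508) and Gzmm with limma-voom. The adjusted p over all alternatives ran from 0.00423 to 0.485 for Gzmb and from 0.00393 to 0.477 for Fasl in TetLowReg vs TetHighProg.

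Genes called in TetLowReg vs TetHighProg were 0 of 5813 tested by the reported test, 1672 of 4461 and 1021 of 3612 by DESeq2 with default and poscounts size factors, 2411 of 5813 by limma-voom, 2 of 2529 and 1131 of 3320 by edgeR and DESeq2 on the 2 groups compared, and 3 of 12933 without the 4 libraries of few genes. For TetLowProg vs TetHighProg they were 0 of 5813, then 2059 of 4461, 1069 of 3702, 2901 of 5813, 1 of 2805, 1987 of 4337 and 3 of 12933 in the same order, and 1 with library size in place of TMM. For TetLowProg vs TetLowReg they were 0, then 27 and 16 by DESeq2 with default and poscounts size factors, and 1 and 3 by edgeR and DESeq2 on the 2 groups. With both low avidity groups together, 1 gene became 2168 and 1372 by DESeq2, 3965 by limma-voom, 7 without the libraries of few genes, and 0 with no filter, a strict filter, library size or mitochondrial genes left out. A fit to 2 groups gives no further value there. Leaving out single libraries gave 0 to 4 (4 without TetLowProg 9), 0, 0 to 2 (2 without TetLowProg 12, 1 without TetHighProg 2) and 0 to 1 genes. Library size in place of TMM moved the median of all genes from 3.52 to 3.04, from 4.27 to 4.49 and from 0.35 to 1.14 in the first 3 comparisons. The cause was not tested.

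Of 271 alternative fold changes of single effector genes, 249 kept their direction and 22 reversed, and none of the reversed ones had an adjusted p under 0.05. In TetLowReg vs TetHighProg, Srgn was 4.72 by limma-voom, 0.65 without the libraries of few genes and −1.77 to 1.15 with single libraries left out, and Gzmm −6.74 to 8.68. In TetLowProg vs TetHighProg, Gzmm was −1.09 with poscounts, −0.66 without the libraries of few genes and −0.43 to 6.98 with single libraries left out, and Srgn 5.34 by limma-voom, 0.32 without the libraries of few genes and −2.11 to 0.75. In TetLowProg vs TetLowReg, Gzmb ran from −2.19 to 0.77 and Gzmm from −2.41 to 7.39 with single libraries left out (3.43 by limma-voom), Nkg7 was −0.24 without the libraries of few genes, and Srgn was 0.41 with library size, 0.51, 0.61 and 0.085 by DESeq2 with default size factors, limma-voom and DESeq2 on 2 groups, and −1.23 to 0.74 with single libraries left out. The mean number of effector genes found per library was 2 higher in TetLowReg and 3.67 higher in TetLowProg than in TetHighProg (0.5 to 4 and 2.5 to 5.5 with single libraries left out). It was 1.67 higher in TetLowProg than in TetLowReg, with −0.333 without TetLowReg 6 and up to 3.5.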
